A study of Mus musculus with 3 samples.

Results

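The 6 genes described here, Gli1, Gli2, Ptch1, Smo, Sufu and Hhip, carry the core of the Hedgehog signalling pathway, and the values are the c-FOS binding sites listed around them in a mouse basal cell carcinoma line. A binding site, or peak, was taken as a member when its midpoint lay in 1 of 6 windows set around these genes on the mm9 build of the mouse genome. The windows measured between 110 and 320 kb, 1070 kb together. They held 19 of the 15011 peaks in the list, and each of the 6 windows held at least 1.

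Hedgehog ligands act by binding the receptor PTCH1, which otherwise holds the membrane protein SMO inactive. Active SMO frees the GLI transcription factors from their cytoplasmic inhibitor SUFU, and GLI proteins then switch on target genes that include Gli1, Ptch1 and the ligand-binding decoy Hhip. Basal cell carcinoma of the skin is known as a tumour of unrestrained Hedgehog signalling, most often through loss of PTCH1 or activating mutation of SMO. c-FOS is a subunit of AP-1, a dimeric transcription factor that responds to Ras and MAP kinase signalling and prefers the sequence TGACTCA or its reverse complement TGAGTCA.

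ChIP-seq, which sequences the DNA recovered with an antibody against a chromatin protein, was carried out in ASZ001, an established cell line known to derive from a basal cell carcinoma of a Ptch1+/- mouse. All 3 samples had the genotype RasV12_TGFbR1kd, that is an activated Ras and a knockdown of TGFbR1, a receptor for TGF-beta, by shRNA, and all were taken on day 6 of Dox-4OHT induction. There were 2 c-FOS ChIP samples and 1 input sample without antibody. The study's question was where c-FOS binds during an experimentally induced change from basal to squamous cell carcinoma. The 3 samples share their genotype and treatment, so the values describe the induced state, and a change on induction was not analysed here. The labels do not say what drives the transgenes, whether the line is a clone or whether the 2 ChIP samples came from separate cultures.

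The peaks form 1 list that names no sample and carries no score, so every count below has no replicate error and the depth behind it is unknown. Peaks of the whole list had a median width of 158 bp with quartiles of 119 and 225 bp. A peak list measures no RNA, so the labelled cell type could not be checked against marker genes. Where the genes lie inside their windows was not analysed here, because no mm9 annotation was used, and a peak below belongs to a window and not to a gene. A table for another build, GRCm38.p6, gives only the length of each gene and the order of its neighbours.

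The DNA under the peaks was not analysed here, since an mm9 sequence was not used. The sequence just before the transcription start could be read for 5 of the 6 genes (Gli2, Ptch1, Smo, Sufu and Hhip) from RefSeq promoters on GRCm38.p6. These promoters span 300 bases, 250 before and 50 after the start. Whether a listed peak covers them was not analysed here. The AP-1 sequence TGACTCA or TGAGTCA, searched on both strands, was found in 0 of these 5 promoters, against 5.2% of the 32851 promoters in the table. The related palindrome TGACGTCA, the cyclic AMP response element that AP-1 and CREB family dimers can bind, overlaps neither form and was searched after the promoters had been seen. It was found in 1 of the 5, that of Hhip, against 1.79% of all promoters. A match is a run of letters and not a measured site. The 250 bases before the start are shown for Hhip, with TGACGTCA in capitals at bases 75 to 68 before the start, and for Sufu, whose window held the most peaks and whose promoter holds neither motif. Hhip lies at chr8:80058009-80058258 on the minus strand and Sufu at chr19:46396646-46396895 on the plus strand, both on GRCm38.p6, positions that cannot be set beside the mm9 peaks.
Hhip: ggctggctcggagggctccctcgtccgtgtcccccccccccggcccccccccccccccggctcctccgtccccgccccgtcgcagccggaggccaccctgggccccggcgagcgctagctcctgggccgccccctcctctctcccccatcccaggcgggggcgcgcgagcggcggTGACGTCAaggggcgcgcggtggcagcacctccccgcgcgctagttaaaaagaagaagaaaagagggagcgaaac
Sufu: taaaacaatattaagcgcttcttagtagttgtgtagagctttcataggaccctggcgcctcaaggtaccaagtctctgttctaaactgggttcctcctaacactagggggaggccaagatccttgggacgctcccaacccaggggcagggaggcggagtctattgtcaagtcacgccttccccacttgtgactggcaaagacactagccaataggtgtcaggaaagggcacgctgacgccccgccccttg

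Of 23 other genes connected with the pathway, 14 (among them Gli3, Kif7, Gas1, Mycn and Bcl2) had promoters that could be read in the same way, 16 in all. The motif TGACTCA or TGAGTCA was found in 0 of these 16, and TGACGTCA in 0, where the shares over all promoters are 5.2% and 1.79%. With shares this low, a count of 0 in so few promoters says little. Peaks near these genes were not analysed here.

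Sufu, the inhibitor that holds GLI proteins in the cytoplasm, had the window with the most c-FOS peaks. Its 150 kb on chromosome 19 (46.42 to 46.57 Mb) held 9 peaks, or 60 per Mb (exact Poisson 95% interval 27.4 to 114). Poisson intervals here cover counting error only and take peaks as independent, which makes them too narrow where peaks cluster. Chromosome 19 is rich in peaks, with 13.2 per Mb, and at that density the window would hold 1.98. The window was thus 4.54 times as dense as its chromosome (interval 2.08 to 8.63).

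Among 408 non-overlapping windows of 150 kb on chromosome 19, 51.2% held at least 1 peak and 5.88% held 9 or more. Of these 408 windows, 2 held 18 or more peaks, and the highest count was 39. The Sufu count was therefore reached by few windows of its chromosome, but was far below the highest count there.

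The Sufu peaks lay mostly towards the edges of the window. The first 5 were within 47.1 kb: 46423261 to 46423551 (291 bp), 46423646 to 46423830 (185 bp), 46431312 to 46431558 (247 bp), 46451368 to 46451544 (177 bp) and 46470232 to 46470376 (145 bp). After a gap of 52.2 kb came the peak from 46522571 to 46522701 (131 bp), which had no other peak within 30 kb on either side. The last 3 were 46552743 to 46553083 (341 bp), 46558450 to 46558699 (250 bp) and 46565118 to 46565335 (218 bp). The 3 peaks nearest each edge were thus all wider than the list's median, and the narrowest Sufu peaks were those in the middle of the window.

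The first pair of Sufu peaks was separated by only 94 bp, and merging peaks within 1000 bp left 8 regions. These were the only 2 of the 19 members with another peak within 1 kb, whereas 24.9% of all listed peaks had such a neighbour.

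Peaks continued on both sides of the Sufu window. The 50 kb before it held 6 peaks, the nearest at 46413411 to 46413535, 6.53 kb outside. The 50 kb after it held 10 peaks, and 9 of these formed a tight run from 46574133 to 46578943, 4811 bp long. The leading peak of this run had its midpoint 4.25 kb outside the window, and the widest measured 653 bp. The 1 Mb around the window held 45 peaks, 3.41 times the chromosome's mean. Counting with 50 kb added on each side gave 25 peaks, 7.57 times the chromosome's density, and with 20 kb removed on each side 3, or 2.07 times, so the Sufu count depended strongly on where the window ends. A span of 150 kb centred on Sufu in GRCm38 takes in, in order, the protein-coding genes Mfsd13a, Actr1a, Sufu and Trim8. Sufu itself is 91.9 kb long. Which of these genes the peaks lie in or near was not analysed here.

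**Figure D1:**
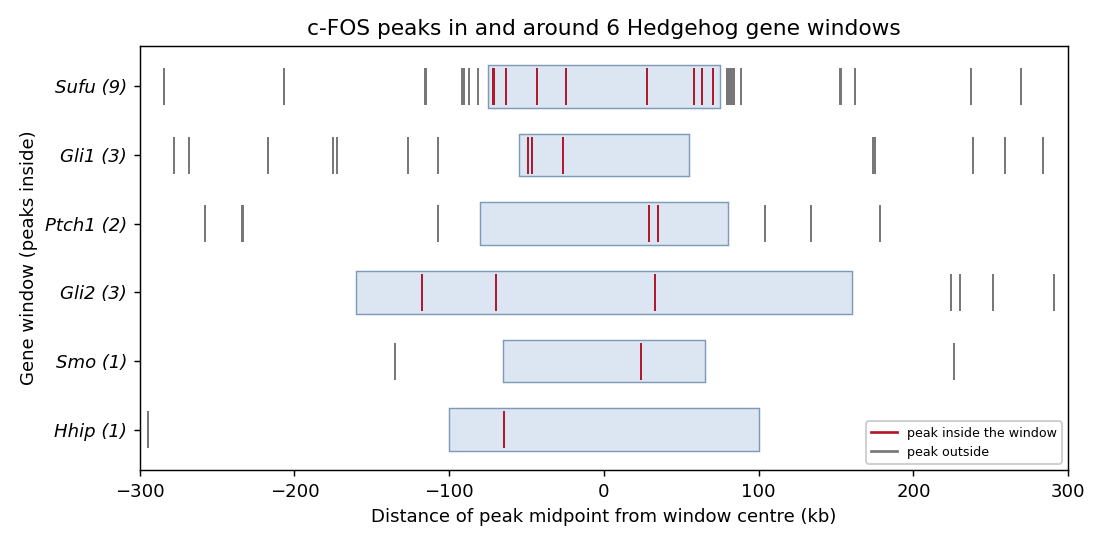
Position of c-FOS peak midpoints (vertical lines) relative to the centre of each gene window, in kb, for the 6 windows ordered by peaks per Mb. Shaded boxes are the windows, red lines the 19 peaks inside and grey lines other listed peaks within 300 kb of the centre. The tight group just right of the Sufu window is the run of 9 peaks outside it, and the Smo and Hhip windows hold 1 peak each.

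Gli1 and Gli2 encode the transcription factors at the end of the pathway. GLI1 is an activator and itself a pathway target, widely used as a readout of Hedgehog activity, while GLI2 carries most of the primary activation. Each of their windows held 3 peaks, but these windows differ in length and in surroundings.

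The Gli1 window of 110 kb on chromosome 10 (126.72 to 126.83 Mb) held 3 peaks, or 27.3 per Mb (5.62 to 79.7). Chromosome 10 carried only 2.88 per Mb, so the ratio of 9.48 (1.96 to 27.7) was the highest of the 6. Of 1181 windows of this length on chromosome 10, 16.2% held at least 1 peak and 3.56% held 3 or more. The 1 Mb around the window held 20 peaks, 6.95 times the chromosome's mean, so the neighbourhood of the window was dense as well.

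All 3 Gli1 peaks were in the first 28.8 kb of the window. They were 126725877 to 126726076 (200 bp), 126728480 to 126728593 (114 bp) and 126748673 to 126748868 (196 bp), the leading pair 2.40 kb apart. The nearest listed peak before the first of the 3 was 58.1 kb away. From the last of the 3 no peak was listed for 200.1 kb, a stretch that takes in the remaining 81.2 kb of the window. Gli1 is 11.7 kb long, 10.6% of the window's length, and a span of 110 kb centred on it in GRCm38 also takes in 8 other protein-coding genes, in the order Dctn2, Mbd6, Ddit3, Mars1 and Arhgap9 on its low-coordinate side and Inhbe, Inhbc and R3hdm2 on the other. The 3 peaks therefore cannot be given to Gli1 from these data. With the window narrowed by 20 kb on each side, 1 peak remained and the ratio was 4.97. With 50 kb added on each side the ratio was also 4.97, below the 7.57 of the Sufu window under the same change, so the place of Gli1 as highest depended on the window edges.

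The Gli2 window was the longest, 320 kb on chromosome 1 (120.68 to 121.00 Mb), and its 3 peaks came to 9.38 per Mb (1.93 to 27.4). This was 2.52 times the density of chromosome 1, 3.72 per Mb, with a counting interval of 0.520 to 7.37 that spans 1. Of 616 windows of this length on chromosome 1, 44.3% held at least 1 peak and 16.9% held 3 or more.

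The Gli2 peaks stood apart from each other and from their nearest neighbours outside the window. They were 120722342 to 120722510 (169 bp), 120770180 to 120770306 (127 bp) and 120873227 to 120873385 (159 bp), separated by 47.7 and 102.9 kb. The next listed peaks were 366.2 kb before the first and 190.6 kb after the last. The 1 Mb around the window nevertheless held 10 peaks, 2.69 times the chromosome's mean. Gli2 is a long gene, 220.3 kb or 68.9% of the window's length, and no other protein-coding gene falls in a span of this length centred on it in GRCm38. In the Sufu window each peak had at least 11 others within 100 kb, against at most 1 for each Gli2 peak.

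Ptch1 and Smo encode the receptor and the signal transducer that it restrains. Their windows held 2 peaks and 1, all of them narrower than the list's median of 158 bp.

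The Ptch1 window of 160 kb on chromosome 13 (63.56 to 63.72 Mb) held 2 peaks, or 12.5 per Mb (1.51 to 45.2), against 5.41 per Mb on the chromosome. The ratio was 2.31 (0.280 to 8.34). Of 751 windows of this length on chromosome 13, 38.9% held at least 1 peak and 21.3% held 2 or more. A count of 2 or more was thus a minority, but not rare there. The peaks, 63669367 to 63669487 (121 bp) and 63674818 to 63674915 (98 bp), formed a pair 5.33 kb apart, with no other peak for 136.1 kb before and 69.2 kb after. The 1 Mb around the window held 14 peaks, 2.59 times the chromosome's mean. The narrower Ptch1 peak had the smallest width in the whole list, 98 bp, and was the only member that did. This is also the commonest width, shared by 10.7% of all listed peaks. Ptch1 is 65.1 kb long, and Fancc, a gene of the Fanconi anaemia DNA repair pathway, is the only other protein-coding gene in the same span centred on it in GRCm38. Peaks outside but near both edges (26.9 kb before and 24.2 kb after) brought the count to 5 when 50 kb was added on each side.

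The Smo window of 130 kb on chromosome 6 (29.63 to 29.76 Mb) held 1 peak, 29718935 to 29719042, 108 bp wide. Its density of 7.69 per Mb (0.195 to 42.9) was 1.05 times that of chromosome 6 (0.0267 to 5.87), and 39.4% of 1150 windows of this length on the chromosome held at least 1 peak. The Smo peak had 158.9 kb to the peak before and 202.1 kb to the peak after, although the 1 Mb around the window held 17 peaks, 2.33 times the chromosome's mean. The ratio turned to 0.596 when 50 kb was added on each side, since no further peak was reached. Smo is 25.9 kb long, and its protein-coding neighbours in a span of 130 kb centred on it in GRCm38 are Tspan33 and Ahcyl2.

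Hhip encodes a membrane protein that binds Hedgehog ligands and keeps them from PTCH1. Its window of 200 kb on chromosome 8 (82.43 to 82.63 Mb) held 1 peak, 82465083 to 82465234, 152 bp wide. At 5 per Mb (0.127 to 27.9) it was the only window below its chromosome's density, which at 10.7 per Mb is high. The ratio was 0.469 (0.0119 to 2.61), and 52.6% of 658 windows of this length on chromosome 8 held at least 1 peak.

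The Hhip peak was the most isolated member. The peak before it was 229.4 kb away and the next one after it 797.5 kb away, and the 1 Mb around the window held 7 peaks, 0.656 times the chromosome's mean. Hhip is 92.2 kb long and is the only protein-coding gene in a 200 kb span centred on it in GRCm38. The promoter match to TGACGTCA shown above is thus in the gene whose window held the lowest density of peaks, although neither value says whether c-FOS is bound at that promoter.

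**Figure D2:**
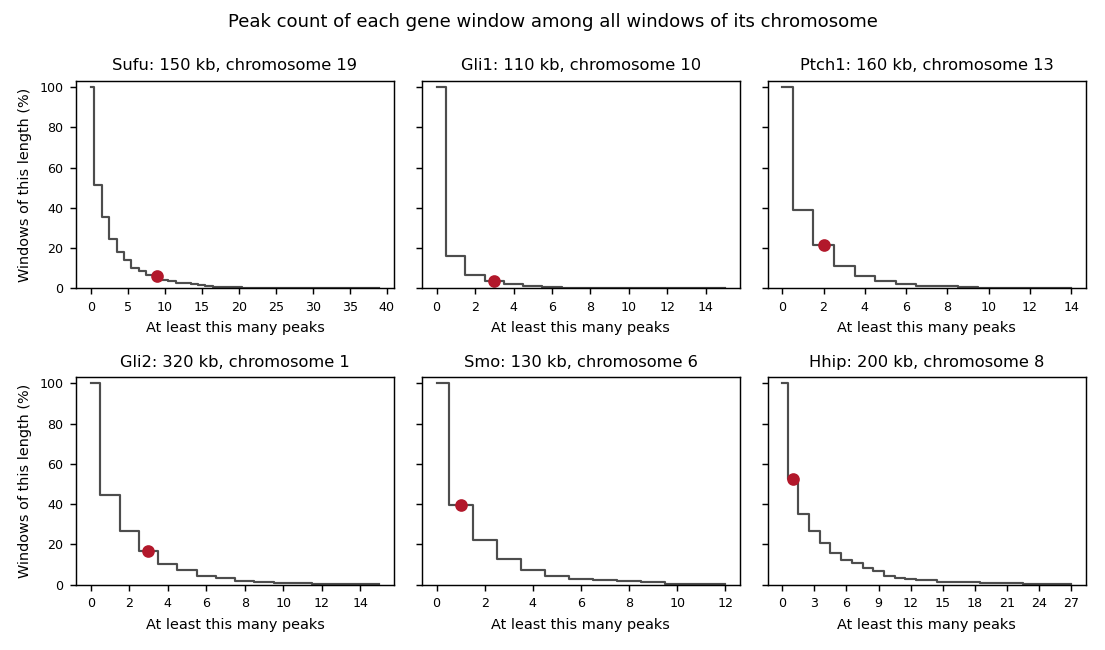
Percentage of all non-overlapping windows of the given length on the same chromosome (vertical axis) that held at least the number of peaks on the horizontal axis, with 1 panel per gene and the gene's own window as a red point. The points of Gli1 and Sufu sit low on their curves, at 3.56% and 5.88%, and those of Smo and Hhip are at the share of windows with any peak, 39.4% and 52.6%.

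In order of peaks per Mb the windows ran Sufu (60), Gli1 (27.3), Ptch1 (12.5), Gli2 (9.38), Smo (7.69) and Hhip (5). The counting intervals of neighbours in this order overlapped. Overlap does not by itself show that densities are alike, and differences between windows were not tested. The interval of Sufu overlapped those of Gli1, Ptch1, Smo and Hhip, and lay just above that of Gli2 (lower bound 27.44 against an upper bound of 27.40 per Mb). Set against each window's own chromosome the order began with Gli1 (9.48) and Sufu (4.54), the only ratios whose interval lay above 1. Such intervals take peaks as independent and are too narrow where peaks cluster, so they do not settle whether these windows stand out. With windows narrowed by 20 kb, Gli1 kept 1 peak (ratio 4.97) and Sufu 3 (ratio 2.07). Sufu led instead when 50 kb was added on each side, as given above, and when another reference was used: against the mean of chromosomes 1 to 19 and X, 5.69 per Mb, Sufu stood at 10.6 and Gli1 at 4.80.

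Counted together, the 6 windows held 19 peaks where the densities of their chromosomes give 7.43, a ratio of 2.56. Without Sufu, 10 peaks stood against 5.45, a ratio of 1.83. No test was made of these ratios, since there is 1 list, and the windows were chosen around genes while the reference covers the whole chromosome.

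The wider members were mostly Sufu peaks. Members ranged from 98 to 341 bp with a median of 169 bp, and 11 of 19 were wider than the list's median of 158 bp, as 50% of all listed peaks were by construction. Of those 11, 7 were among the 9 Sufu peaks (median 218 bp) and 4 among the other 10 (median 139.5 bp). The ones outside Sufu were all Gli1 or Gli2 peaks, and the medians of those windows were 196 and 159 bp. All 4 members above the list's upper quartile were Sufu peaks. Those were the peaks of 341, 291, 250 and 247 bp, and the widest of them was wider than or as wide as 92.2% of the list. Width is an interval from the peak caller and was not read as binding strength.

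Spacing did not split the members as width did. As given above, 2 of the 19 members had another listed peak within 1 kb, against 24.9% of the list. Another listed peak lay within 10 kb of 10 of the 19 members, against 48.7% of all listed peaks, and within 100 kb of 16 members, against 88.1%. The 3 members without a neighbour within 100 kb were the last Gli2 peak, the Smo peak and the Hhip peak. The Sufu window was crowded, though not all of its peaks had a neighbour within 10 kb. The Gli1 and Ptch1 windows each held a close pair, 2.40 and 5.33 kb apart, and the Gli2, Smo and Hhip windows held scattered sites.

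**Figure D3:**
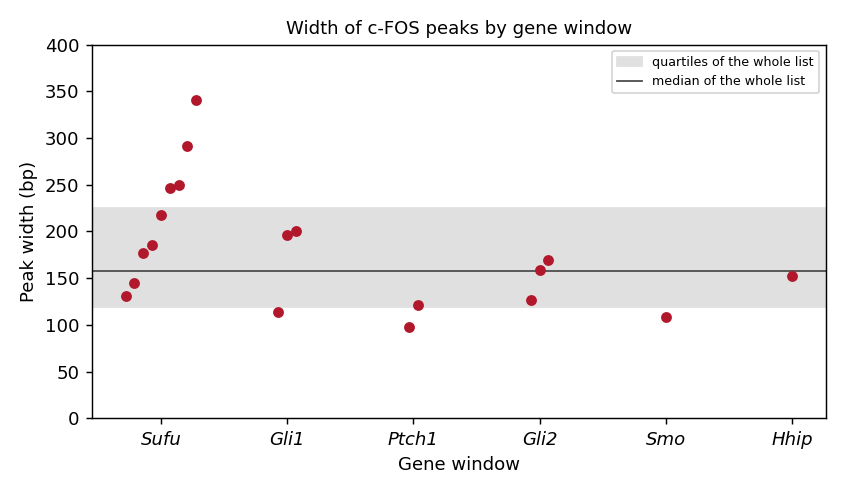
Width in bp of each of the 19 peaks (red points, side by side within a window only to separate them) for the 6 gene windows, with the median (line) and quartiles (grey band) of all 15011 listed peaks. The 4 points above the band, from 247 to 341 bp, all belong to Sufu, and the Smo peak and 1 peak each of Ptch1 and Gli1 are below it.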

How the data were processed

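Reads were aligned with Bowtie2 to mm9 and peaks were called with MACS2, per the submitters' processing notes. Neither the tool versions and peak threshold, nor the role of the input, nor how 1 list was made from 2 ChIP samples, is given in the sources used here. The deposited list gives only chromosome, start and end of each peak. Coordinates are printed 1-based on mm9. The build was checked against lengths in GenomeInfoDb 1.38.1 (R 4.3.3): 0 peaks lay past an mm9 chromosome end and 55 past an mm10 end. The windows were taken as given and were not checked against an mm9 annotation. The genes, windows and lists were chosen with earlier results of these data known. All 6 members are named with every peak of their windows. The nearest peaks outside are given by position for the Sufu window and by distance for the others.

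Peak midpoints were counted per window with pandas 2.3.3 and numpy 2.4.6 under Python 3.11.15, and intervals were computed with scipy 1.17.1. Chromosome densities used the whole assembled length, gaps included, which lowers them. Each chromosome was divided from its start into whole windows of the gene window's length. Gene lengths, neighbours and promoters came from RefSeq GRCm38.p6. The 1 Mb counts are centred on the window. Counting code was tested on simulated lists. Alternatives were window edges, overlap in place of midpoint, merging, width and reference. Figures were drawn with matplotlib 3.10.9.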

Additional observations from a re-analysis of the deposited data

How the results depend on the processing

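With 1 list and no scores, a stricter peak threshold or a left-out replicate could not be tried, and depth limits the list in an unknown way. No paired analysis was possible because the list names no replicate. The planned search for motifs in peaks and the distances to gene starts were not run, for want of mm9 sequence and annotation here.

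The 19 peaks became 38 with windows widened by 50 kb, 11 with windows narrowed by 20 kb and 11 when only peaks wider than the list's median were kept. In that last setting the Ptch1, Smo and Hhip windows held 0 peaks. Keeping peaks wider than 98 bp left 1 in the Ptch1 window. The Sufu ratio to its chromosome, 4.54, ran from 2.07 with windows narrowed to 7.57 with windows widened, and was 6.88 for peaks wider than the list's median. Over all 6 windows the ratio to their chromosomes stayed between 1.93 and 3.23 in the alternatives run.

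With chromosomes 1 to 19 and X as reference, the share of same-length windows with at least as many peaks was 7.77% for Gli1, 22.3% for Gli2, 29.3% for Smo, 1.25% for Sufu and 36.4% for Hhip. Among windows of the own chromosome that held a peak it was 22.0% for Gli1, 38.1% for Gli2, 54.8% for Ptch1, 11.5% for Sufu and, by construction, 100% for Smo and Hhip. With TGACGTCA in place of TGACTCA or TGAGTCA, 1 promoter matched in place of 0.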
